A study of Homo sapiens with 2 samples.

Results

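Epithelial-state cells of a KMT2D knockout line were compared with epithelial-state cells of an EED knockout line of the same human mammary clone. They were the cells in which vimentin, the intermediate filament protein of mesenchymal cells, gave at most 0.5 of the UMIs (single RNA molecules counted) of 5 genes. This share is called V and is the VIM count divided by the counts of VIM, KRT5, KRT17, S100A14 and SFN, in cells with at least 5 such UMIs. A cell was given to a line where its strongest hashtag had at least 150 UMIs and at least 10 times the next, and it had to hold at least 500 genes and at most 20% mitochondrial UMIs. This left 1360 C1-sgKMT2D and 1252 C1-sgEED cells, or 2612 of the 8281 single-hashtag cells kept and of 10336 barcodes. The members were thus chosen by their measured VIM, keratin, S100A14 and SFN counts, so the levels of those 5 genes are given as a description only.

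The series holds single-cell 3' RNA profiles of C1, an epithelial cell line derived from HMLER, which are human mammary epithelial cells immortalised with telomerase and the SV40 early region and transformed with RAS. All groups share that background and 1 culture medium with insulin, EGF and hydrocortisone. C1-sgControl carries a control guide, C1-sgEED a guide against EED and C1-sgKMT2D a guide against KMT2D, and the design asks whether losing either gene lets C1 cells take up mesenchymal states. After staining with hashtags the lines were pooled into a single 10x run, which gave 1 library of transcripts and 1 of hashtags. A line is therefore 1 sample, its differences have no replicate check, and no test across samples was possible. The titles mention mixed clones without a number of clones per line.

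EED is a core subunit of PRC2, the Polycomb complex that trimethylates lysine 27 of histone H3 at silenced genes, and it binds that mark to keep it in place. KMT2D, also called MLL4, methylates lysine 4 of histone H3 at enhancers as part of a complex that also holds the H3K27 demethylase KDM6A. Both regulators are known for keeping cell identity stable in epithelia, PRC2 through repression and KMT2D through enhancer activity. Basal mammary cells are marked by the keratins KRT5, KRT14 and KRT17, by laminin-332 and by hemidesmosomes.

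The cells were told apart by the tag of the hashtag antibody, of 15 bases each, which is shown here because it alone assigns a cell to a line; capitals mark the whole tag.
C1-sgControl: GTCAACTCTTTAGCG
C1-sgEED: TTCCGCCTCTCTTTG
C1-sgKMT2D: AGTAAGTTCAGCGTA
The next 4 sequences are the 250 bases upstream of the RefSeq start (GRCh38.p14, on the strand of the gene) of genes on which the results turn. MGMT and PKIB are shown for their CpG pairs, in capitals, because their levels differed between the lines in opposite directions.
MGMT: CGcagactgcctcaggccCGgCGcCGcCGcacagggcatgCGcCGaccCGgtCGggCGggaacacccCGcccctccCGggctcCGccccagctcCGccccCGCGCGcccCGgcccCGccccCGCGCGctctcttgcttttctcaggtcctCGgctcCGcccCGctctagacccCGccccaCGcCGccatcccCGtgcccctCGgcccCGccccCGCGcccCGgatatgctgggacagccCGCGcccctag
PKIB: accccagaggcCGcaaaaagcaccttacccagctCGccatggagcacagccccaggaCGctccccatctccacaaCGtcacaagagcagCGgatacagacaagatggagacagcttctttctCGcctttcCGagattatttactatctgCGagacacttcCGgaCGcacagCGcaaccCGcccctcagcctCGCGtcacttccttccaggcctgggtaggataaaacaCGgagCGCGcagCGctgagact
The MGMT window (chr10:129466991-129467240, plus strand) holds 36 CpG pairs, and the PKIB window (chr6:122471671-122471920, plus strand) holds 18. CXCL1 and CXCL3, neutrophil chemokines, are shown because both had a higher level in C1-sgKMT2D, and capitals mark matches to the NF-kB consensus.
CXCL1: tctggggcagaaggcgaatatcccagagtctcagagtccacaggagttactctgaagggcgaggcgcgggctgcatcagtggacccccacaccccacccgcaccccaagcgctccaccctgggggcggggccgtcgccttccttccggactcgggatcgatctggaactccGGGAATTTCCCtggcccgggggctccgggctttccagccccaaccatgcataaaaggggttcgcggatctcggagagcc
CXCL3: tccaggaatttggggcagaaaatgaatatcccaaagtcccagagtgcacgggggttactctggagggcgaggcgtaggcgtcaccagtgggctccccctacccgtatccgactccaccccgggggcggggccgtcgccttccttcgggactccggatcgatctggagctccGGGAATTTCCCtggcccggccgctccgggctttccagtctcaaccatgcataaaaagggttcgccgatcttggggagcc
In the CXCL1 window (chr4:73869143-73869392, plus strand) and in the CXCL3 window (chr4:74038690-74038939, minus strand) the same 11 letters lie 79 to 69 bases upstream of the start, as 2 overlapping matches on opposite strands.

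Of the assigned cells, 58.95% (95% Clopper-Pearson interval 56.9 to 61.0) of C1-sgKMT2D and 54.1% (52.0 to 56.1) of C1-sgEED had V of at most 0.5, and all 1713 C1-sgControl cells did. C1-sgKMT2D cells stood further up the V scale inside the chosen range. Their median V was 0.179, against 0.0957 in C1-sgEED and 0.0745 in C1-sgControl. Near the bound, 115 C1-sgKMT2D and 23 C1-sgEED cells had V over 0.4 and up to 0.5, and 99 and 16 had V over 0.5 and up to 0.6. Just inside and just outside it, KRT14 was at 185 and 194 CPM (the usual scaling of a count to the gene UMIs of its group) in C1-sgKMT2D and at 81.8 and 102 CPM in C1-sgEED.

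**Figure D1:**
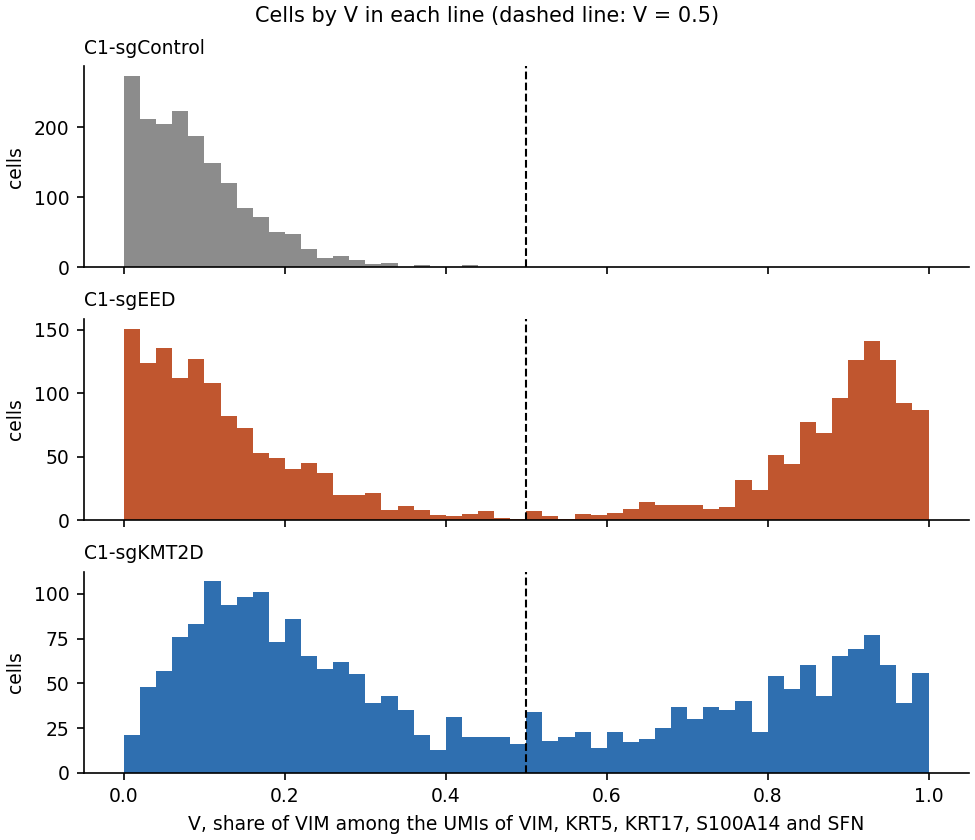
Number of cells (vertical axis) by V, the VIM share of the UMIs of 5 genes (horizontal axis, no unit), in each line, with the bound of 0.5 dashed. C1-sgControl lies wholly below the bound, and the C1-sgKMT2D cells below it are centred at a higher V (median 0.179) than those of C1-sgEED (median 0.0957).

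The groups summed to 9312203 UMIs in C1-sgKMT2D, 6210734 in C1-sgEED and 9943405 in C1-sgControl, and the median cell held 6714.5, 4458 and 5699 UMIs. Filtering had removed 5.61%, 6.34% and 26.5% of the barcodes of these lines. Ribosomal protein genes took 26.2%, 22.5% and 23.6% of the UMIs and mitochondrial genes 8.19%, 8.82% and 8.58%. A UMI of at least 1 of 8 mitotic genes was seen in 74.3%, 70.2% and 51.7% of the cells. Markers of other cell types were at or near 0. Immune markers summed to 14.4, 19.3 and 20.3 CPM, nearly all of it CD68, with PTPRC, CD3E, LYZ and TYROBP at 0, and endothelial and neural markers summed to at most 0.644 CPM in any of the groups. All intervals are 95% intervals for counting error, and levels of summed cells have exact Poisson intervals.

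Set against the cells above the bound, the label of an epithelial state held for genes that V does not use. KRT14, a basal keratin, was at 638 CPM in C1-sgKMT2D and 560 CPM in C1-sgEED, against 70.6 and 60.7 CPM in the cells of the same lines with V above 0.5. The fibrillar collagen COL3A1 was at 6.66 and 4.51 CPM, against 165 and 177 CPM above the bound. ZEB1, a transcription factor that represses epithelial genes, was at 2.58 and 1.13 CPM, against 21.9 and 43.3 CPM. C1-sgControl had KRT14 at 1535 CPM and COL3A1 at 0.704 CPM, so both knockouts lay below it in KRT14 and above it in COL3A1. The label was weaker near the bound. From V over 0 to 0.1 to V over 0.3 to 0.5, KRT14 went from 862 to 317 CPM in C1-sgKMT2D and from 661 to 205 CPM in C1-sgEED. The collagen COL6A2 went from 6.78 to 54.4 CPM and from 21.8 to 63.6 CPM. Of the genes in the rule, KRT5 was at 2344 CPM in C1-sgKMT2D, 1763 CPM in C1-sgEED and 2361 CPM in C1-sgControl. KRT17 was at 8909, 6096 and 7247 CPM. VIM was at 2849, 1334 and 1149 CPM, and SFN, the cell cycle protein 14-3-3 sigma, at 732, 1054 and 1377 CPM.

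The targeted genes were read in all groups. EED (ENSG00000074266; chromosome 11, 86244544 to 86278813, plus strand, GENCODE v29 on GRCh38) was at 14.8 CPM in C1-sgKMT2D, 19.97 CPM in C1-sgEED and 13.6 CPM in C1-sgControl. Its level was thus not low in the epithelial-state cells of its own knockout line. In the C1-sgEED cells with V above 0.5 it was at 3.22 CPM, or 6.20-fold lower than in those with V of at most 0.5, while C1-sgKMT2D cells above the bound had 16.8 CPM. KMT2D (ENSG00000167548; chromosome 12, 49018975 to 49059774, minus strand) was at 4.83, 3.70 and 4.63 CPM in the same order of lines, on 45, 23 and 46 UMIs. Where the edits lie was not stated. A 3' tag away from an edit checks nothing of it, so these levels do not show which cells carry a loss of either protein.

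Across the 7292 genes with a mean of at least 10 CPM over the 2 groups, 128 were at least 1.5-fold higher in C1-sgKMT2D (1.76% of the genes) and 725 at least 1.5-fold lower (9.94%). The ratios carry 1 CPM added to each level. Of these, 28 were at least 2-fold higher and 255 at least 2-fold lower. The imbalance depended on scaling: with the median of ratios or TMM in place of CPM, 390 against 437 or 399 against 434 genes were called, and the median of all genes moved from -0.07 to 0.10 log2. The calls higher in C1-sgKMT2D were thus 15.01% of all calls by CPM, 47.2% by the median of ratios and 47.9% by TMM. Each of the 30 genes described next kept its sign in all 13 alternatives run on them. They were picked as the extremes of this ratio, and a change of scaling shifts all ratios by about the same amount. Their signs could thus not turn under the other scalings, and keeping them checks nothing of the scaling.

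**Figure D2:**
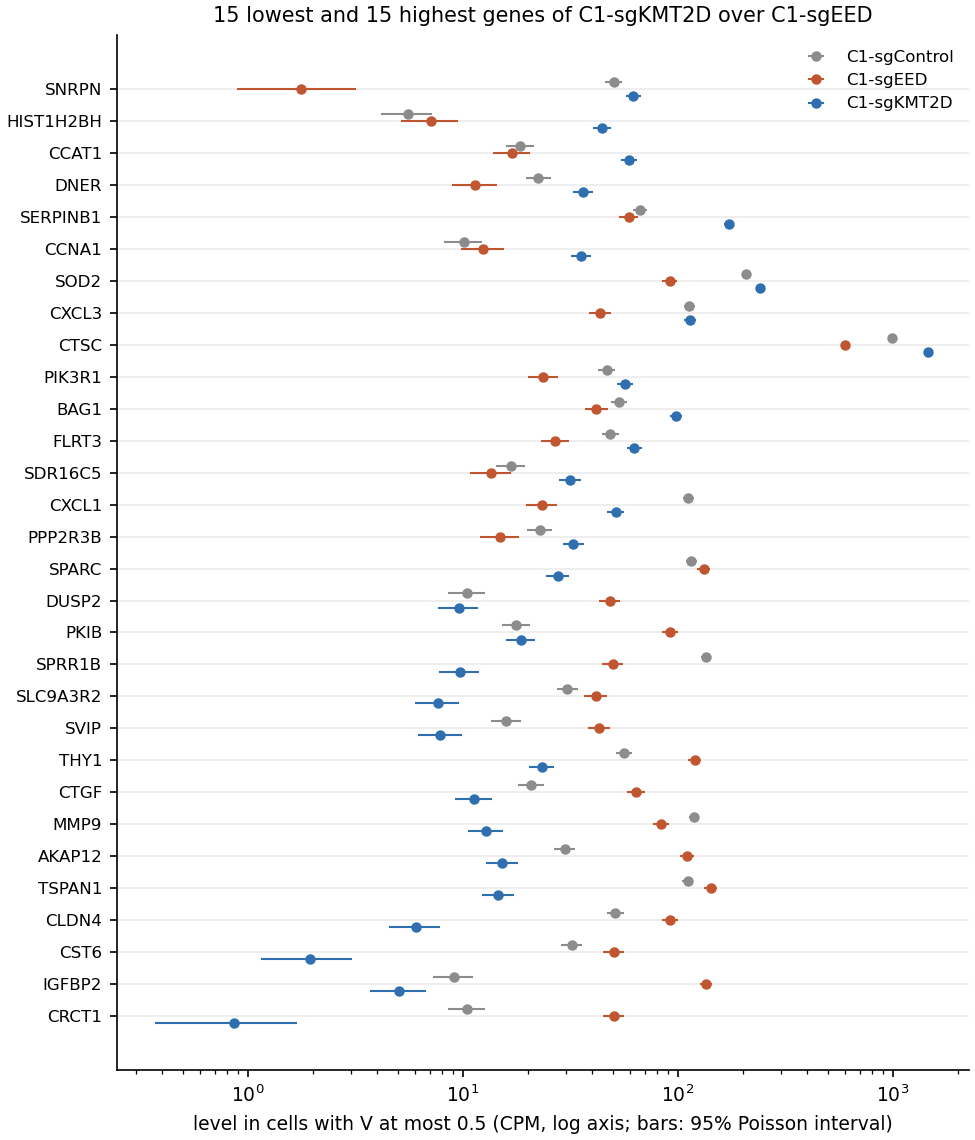
Level in cells with V of at most 0.5 (CPM, log axis; bars are exact 95% Poisson intervals) of the 30 genes at the ends of the ranking by ratio of C1-sgKMT2D over C1-sgEED, in the 3 lines. SNRPN stands at 1.77 CPM in C1-sgEED against 62.1 and 50.3 CPM in the other lines, while PKIB and DUSP2 lie close to the control in C1-sgKMT2D and high in C1-sgEED.

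SNRPN, a paternally expressed imprinted gene that encodes a splicing protein, gave the highest ratio. SNRPN (ENSG00000128739; chromosome 15, 24823637 to 24978723, plus strand) was at 62.1 CPM in C1-sgKMT2D, 1.77 CPM on 11 UMIs in C1-sgEED and 50.3 CPM in C1-sgControl, which made it 35.05-fold higher in C1-sgKMT2D than in C1-sgEED (19.4 to 70.6). The low level was that of C1-sgEED, and the other lines lay close together. Thinning each cell to 2000 UMIs left out the 54 C1-sgKMT2D, 52 C1-sgEED and 77 C1-sgControl cells with fewer, here and below. A SNRPN UMI was found in 12.1% (10.4 to 13.99) of thinned C1-sgKMT2D, 0.417% (0.135 to 0.9697) of C1-sgEED and 9.29% of C1-sgControl cells. Before thinning it was found in 32.6% of all epithelial-state C1-sgKMT2D and 0.799% of all epithelial-state C1-sgEED cells. C1-sgEED cells with V above 0.5 did not share this: SNRPN was at 45.6 CPM there and at 49.6 CPM in C1-sgKMT2D. Over the bins of V, C1-sgEED had 2.97, 2.42, 0 and 8.30 CPM up to V of 0.5 and 51.7 and 40.2 CPM above it. SNURF, which shares its locus with SNRPN, had at most 1 UMI in either epithelial-state group, and reads of the 2 genes cannot be told apart here.

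MGMT, the enzyme that removes alkyl groups from guanine in DNA, was also lowest in C1-sgEED. It was singled out after its values were seen, since its mean of 19.95 CPM fell just under the bound of 20 CPM for genes named by rank. MGMT (ENSG00000170430; chromosome 10, 129467184 to 129768007, plus strand), whose CpG-rich upstream window is printed above, was at 37.2 CPM in C1-sgKMT2D, 2.74 CPM in C1-sgEED and 39.5 CPM in C1-sgControl. It was 13.6-fold higher in C1-sgKMT2D than in C1-sgEED (8.35 to 23.6). Thinned shares of cells with a UMI were 6.89%, 0.25% and 7.21%. Above the bound of V, C1-sgEED cells had 18.6 CPM and C1-sgKMT2D cells 42.6 CPM. DNA methylation was not measured in these cells.

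**Figure D3:**
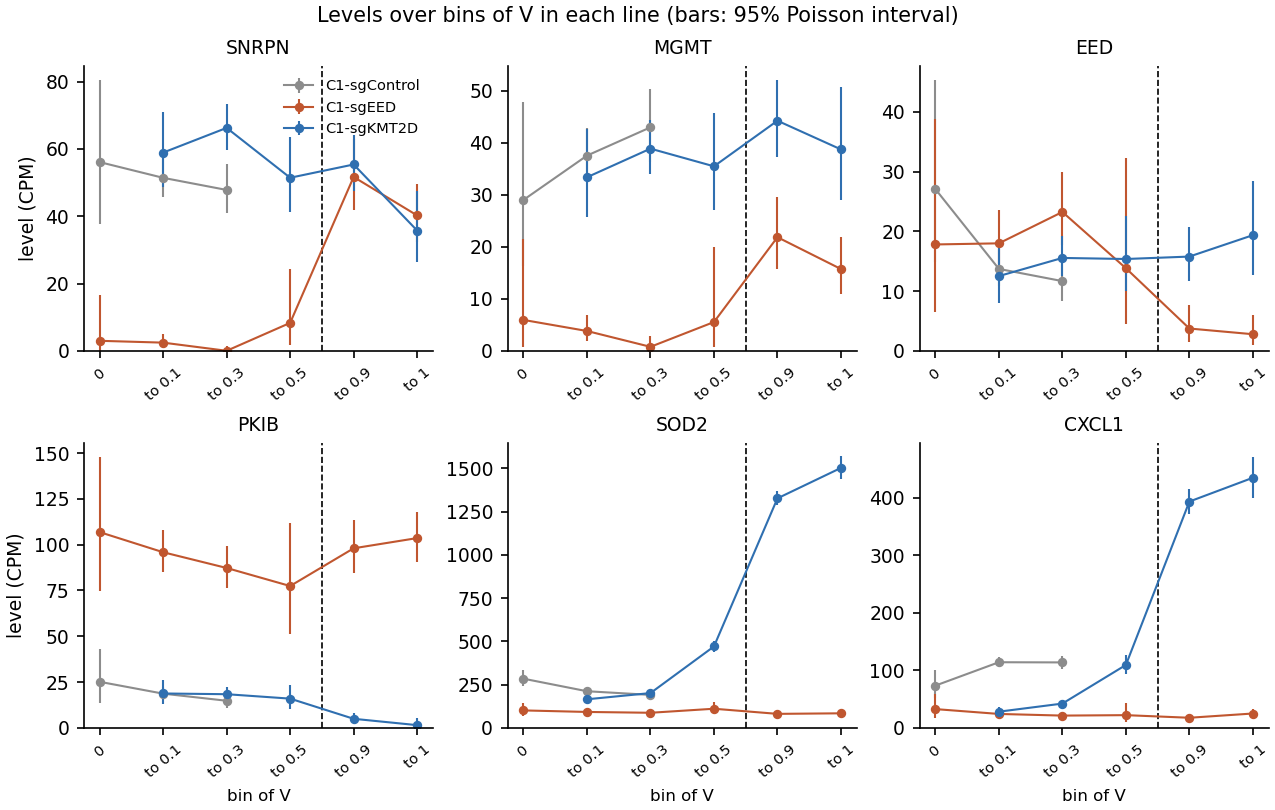
Level (CPM; bars are exact 95% Poisson intervals) of SNRPN, MGMT, EED, PKIB, SOD2 and CXCL1 over bins of V (labels give the upper end of each bin; the dashed line is V of 0.5) in the 3 lines, with a bin drawn only where the line has enough cells. In C1-sgEED, SNRPN and MGMT are low and EED high in the bins up to 0.5, with the reverse above it, and SOD2 and CXCL1 are highest in C1-sgKMT2D above 0.5.

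The other genes with the highest ratios were above the control in C1-sgKMT2D or below it in C1-sgEED. HIST1H2BH, a core histone gene of a multicopy family whose reads may be shared with its copies, was at 44.4 CPM in C1-sgKMT2D, 7.08 CPM in C1-sgEED and 5.53 CPM in C1-sgControl (6.26-fold higher than in C1-sgEED, 4.58 to 8.75). The long noncoding RNA CCAT1 was at 59.1, 16.9 and 18.5 CPM (3.49-fold, 2.83 to 4.35), and SERPINB1, an inhibitor of neutrophil proteases, at 172, 58.9 and 66.8 CPM (2.92-fold, 2.60 to 3.28). For these 3 genes, and for the meiotic cyclin CCNA1 at 35.4, 12.4 and 10.1 CPM, the C1-sgEED level lay near the control and the C1-sgKMT2D level above it. The lysosomal protease CTSC was the most abundant of the 15 genes, at 1464, 598 and 994 CPM (2.45-fold, 2.36 to 2.54), so that its control level lay between the knockouts. DNER, a Notch ligand, was at 36.1, 11.4 and 22.4 CPM, and the co-chaperone BAG1 at 97.8, 41.7 and 53.4 CPM. PIK3R1, the regulatory subunit of PI3 kinase, was at 56.8, 23.7 and 46.8 CPM, and the adhesion protein FLRT3 at 62.7, 26.9 and 48.5 CPM. In both, C1-sgKMT2D lay nearer to the control. SDR16C5, a retinol dehydrogenase, was at 31.6 and 13.5 CPM, and PPP2R3B, a regulatory subunit of phosphatase 2A, at 32.7 and 14.8 CPM in C1-sgKMT2D and C1-sgEED.

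At the other end, several genes were higher in C1-sgEED than in both other lines. PKIB, an inhibitor of protein kinase A (ENSG00000135549; chromosome 6, 122471917 to 122726373, plus strand), was at 18.6 CPM in C1-sgKMT2D, 91.8 CPM in C1-sgEED and 17.7 CPM in C1-sgControl, which made it 4.94-fold lower in C1-sgKMT2D than in C1-sgEED (4.16 to 5.89). A PKIB UMI was found in 3.29% (2.39 to 4.41) and 17.4% (15.3 to 19.7) of thinned C1-sgKMT2D and C1-sgEED cells. PKIB also differed above the bound of V, at 3.94 CPM in C1-sgKMT2D and 101 CPM in C1-sgEED. IGFBP2, which binds insulin-like growth factors (ENSG00000115457; chromosome 2, 216632828 to 216664436, plus strand), was at 5.05, 135 and 9.05 CPM, or 26.8-fold lower in C1-sgKMT2D than in C1-sgEED (19.9 to 36.7) and 1.79-fold lower than in the control (1.25 to 2.61). IGFBP2 UMIs were spread over 43.5% of the unthinned C1-sgEED cells, with 5.96% of its UMIs in the 10 highest cells. DUSP2, a phosphatase of MAP kinases, was at 9.56, 48.1 and 10.5 CPM. SVIP, an inhibitor of ER-associated degradation, was at 7.84, 43.0 and 15.9 CPM, and the kinase anchor AKAP12 at 15.3, 111 and 29.8 CPM, and in SVIP and AKAP12 too C1-sgKMT2D lay below the control, while PKIB and DUSP2 lay near it.

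Others were lower in C1-sgKMT2D than in both other lines. CLDN4, a tight junction claudin (ENSG00000189143; chromosome 7, 73799542 to 73832693, plus strand), was at 6.01 CPM in C1-sgKMT2D, 91.9 CPM in C1-sgEED and 51.2 CPM in C1-sgControl, or 15.3-fold lower in C1-sgKMT2D than in C1-sgEED (11.6 to 20.5). Its thinned share of cells was 0.842%, 14.7% and 8.07%. The tetraspanin TSPAN1 was at 14.6, 142 and 111 CPM (9.71-fold, 8.10 to 11.7), and the matrix glycoprotein SPARC at 27.6, 132 and 115 CPM (4.78-fold, 4.15 to 5.52). In these 3 genes the control lay nearer to C1-sgEED. The cysteine protease inhibitor CST6 was at 1.93, 50.2 and 32.1 CPM and the gelatinase MMP9 at 12.8, 83.4 and 119 CPM. SLC9A3R2, a scaffold for membrane transporters on chromosome 16, was at 7.62, 41.5 and 30.6 CPM. THY1, a surface glycoprotein, was at 23.2, 120 and 56.3 CPM, and CTGF, a matricellular YAP target, at 11.3, 63.9 and 20.8 CPM.

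The lowest ratio rested on very few cells. CRCT1, a gene of the cornified envelope region, was at 0.859 CPM in C1-sgKMT2D, 50.4 CPM in C1-sgEED and 10.5 CPM in C1-sgControl, but 1 C1-sgEED cell held 162 of the 313 UMIs and the 10 highest cells held 93.6%. In cells with V over 0.1 and up to 0.3, an alternative chosen after the data were seen, its log2 ratio was -1.10 in place of -4.79. CNFN, another cornified envelope gene, was at 4.08, 33.2 and 7.04 CPM, with 122 of its 206 C1-sgEED UMIs in 1 cell. SPRR1B, a precursor of that envelope, was at 9.66, 49.9 and 136 CPM, with 36.1% of its C1-sgEED UMIs in the 10 highest cells.

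The gene lists below are read as counts of measured members past 1.5-fold, in which 1.76% (higher) and 9.94% (lower) of all genes stood, and as medians beside the -0.07 of all genes. Epithelial genes gave 1 higher and 12 lower of 42, with a median of -0.18 log2; under both other scalings these became 2 higher, 7 lower and 0.00. LAMB3, a chain of laminin-332, was at 498, 446 and 862 CPM in C1-sgKMT2D, C1-sgEED and C1-sgControl, and the desmosome protein DSP at 369, 371 and 465 CPM. TP63, the transcription factor of basal identity, was at 14.4, 13.5 and 23.3 CPM. The 12 lower members included CLDN4 and the keratin KRT15, which was at 194, 673 and 475 CPM. They also included ELF3, an epithelial ETS factor, at 9.88, 32.4 and 18.4 CPM, and RAB25, a GTPase of apical recycling, at 74.7, 160 and 108 CPM. The cadherin CDH1, at 22.01, 36.7 and 65.9 CPM, lies on chromosome 16, where the whole chromosome was lower (below). The single higher member was the desmosomal plakophilin PKP2, at 32.9, 18.2 and 29.5 CPM.

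Squamous differentiation genes went both ways, with 4 higher and 6 lower of 15 and a median of -0.26. The higher ones were SERPINB1, SERPINB5 and the calprotectin genes S100A8 and S100A9, with S100A9 at 537, 306 and 535 CPM. The lower ones were CRCT1, CNFN, CST6, SPRR1B, CASP14 and PI3. The list median turned to 0.27 among the genes of at least 50 CPM, which leaves out all 6 lower members.

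**Figure D4:**
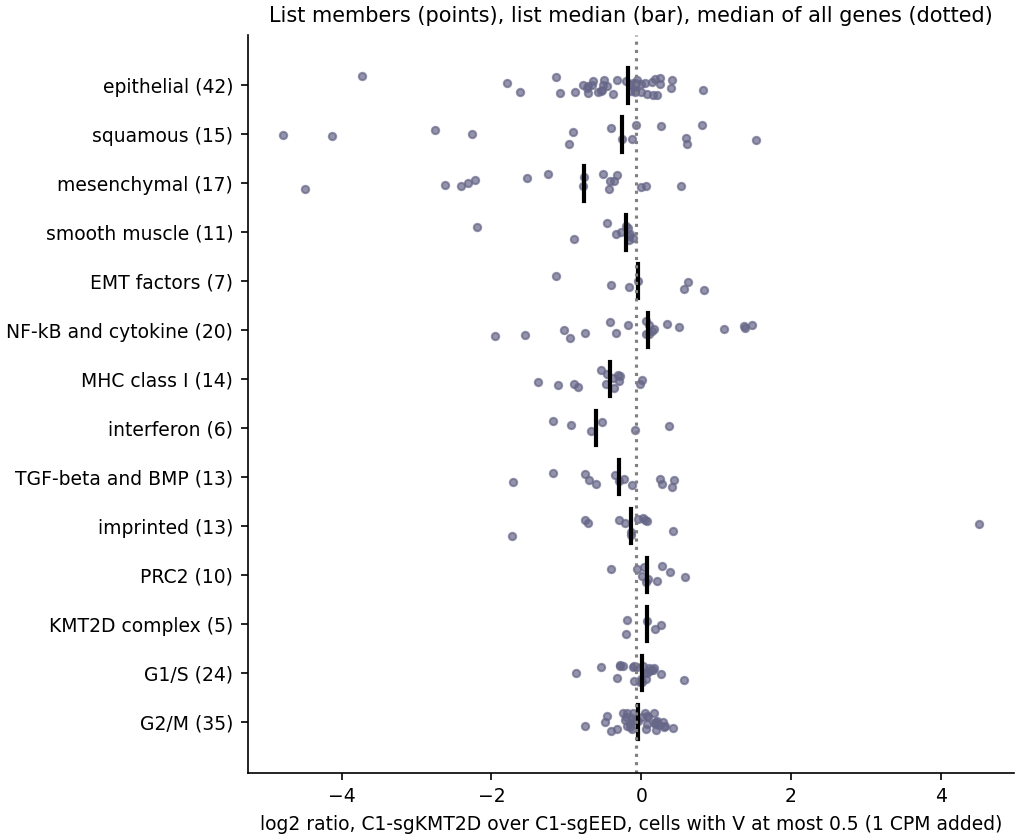
Log2 ratio of C1-sgKMT2D over C1-sgEED (1 CPM added) of each measured member (points) of 14 gene lists in cells with V of at most 0.5, with each list's median (bar), its number of members in brackets and the median of all genes (dotted, -0.07). Mesenchymal and MHC class I members lie mostly to the left, and SNRPN stands alone at 4.51 among imprinted genes.

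Mesenchymal genes were the list with the lowest median. None of 17 was at least 1.5-fold higher and 9 were lower, with a median of -0.76 log2 under CPM, and 1 was higher under both other scalings. IGFBP2, CTGF, THY1 and SPARC were described above. LOXL1, which crosslinks elastin, was at 2.36, 19.6 and 7.24 CPM, IGFBP7 at 31.7, 76.8 and 61.6 CPM and the calcium-binding S100A4 at 13.6, 41.1 and 43.9 CPM in C1-sgKMT2D, C1-sgEED and C1-sgControl. These levels are lower in C1-sgKMT2D although its VIM level and its median V were the higher ones. FN1, which encodes fibronectin, was at 1477, 1988 and 2516 CPM. The same contrast above the bound of V had a median of -0.78 over this list, with THY1 at 63.2 and 431 CPM. Smooth muscle genes gave 0 higher and 2 lower of 11 with a median of -0.20. TAGLN, an actin-binding protein, was at 5.80 and 29.9 CPM with V of at most 0.5, and at 8.09 and 526 CPM above it.

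Transcription factors of the epithelial-mesenchymal transition went both ways, with 2 higher and 1 lower of 7. These calls depended on the setting. With V of at most 0.2 there were 1 higher and 0 lower of 5. Without cells with a mitotic UMI there were 0 higher and 1 lower of 7. Both other scalings gave 3 higher and 1 lower. SNAI2, a repressor of E-cadherin that basal cells also express, was at 106 CPM in C1-sgKMT2D, 58.9 CPM in C1-sgEED and 62.1 CPM in C1-sgControl. TWIST1 was at 16.9, 10.6 and 9.05 CPM. TCF4 was the single lower one of 7 measured, at 6.01, 14.5 and 9.96 CPM. ZEB1 and ZEB2 were below 10 CPM in all of the epithelial-state groups and were not counted.

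Cytokine and NF-kB target genes were split in the epithelial state, with 4 higher and 5 lower of 20 and a median of 0.08 log2. The sign of this median depended on the setting. With V of at most 0.2 the list gave 3 higher, 7 lower and -0.19. Its median was -0.14 without cells with a UMI of the 8 mitotic genes. That setting left out 74.3% of the C1-sgKMT2D and 70.2% of the C1-sgEED cells. Both other scalings gave 5 higher, 4 lower and 0.26. SOD2, the mitochondrial superoxide dismutase, was at 242 CPM in C1-sgKMT2D, 91.6 CPM in C1-sgEED and 208 CPM in C1-sgControl (2.64-fold, 2.41 to 2.90). CXCL3 was at 114, 43.5 and 113 CPM (2.62-fold, 2.29 to 3.00), CXCL1 at 51.3, 23.3 and 112 CPM (2.20-fold, 1.82 to 2.67), and BIRC3, an inhibitor of apoptosis, at 28.3, 9.4997 and 44.05 CPM. Reads of the CXCL genes may be shared among close copies. The 5 lower members were IL32 on chromosome 16, LTB at 15.1, 46.4 and 205 CPM, IL1B at 26.3, 51.7 and 164 CPM, CXCL8 at 32.4, 55.2 and 52.8 CPM and the complement component C3 at 9.34, 20.1 and 44.5 CPM. Several of these, such as IL1B and LTB, were below the control in both knockouts, and so was most of the list. Over its 20 measured members the median against the control was -1.16 log2 in C1-sgEED and -0.90 in C1-sgKMT2D. Over all genes these medians were 0.07 and -0.01.

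Above the bound of V the same list stood apart in 1 direction. There C1-sgKMT2D exceeded C1-sgEED by 1.5-fold or more in 17 of its members and lay that far below it in 0, with a median of 3.00 log2, where 9.39% of all genes were higher and 19.9% lower. SOD2 was at 1379 against 82.7 CPM and CXCL1 at 406 against 21.5 CPM. Within the epithelial state the C1-sgKMT2D level already differed by bin: SOD2 was at 165, 201 and 471 CPM in the bins from V above 0 to 0.1, to 0.3 and to 0.5, and CXCL1 at 28.2, 42.2 and 109 CPM. In C1-sgEED these bins held SOD2 at 92.1, 87.3 and 111 CPM and CXCL1 at 24.2, 21.3 and 22.1 CPM. The bin up to 0.5 gave 185 of the 478 CXCL1 UMIs of C1-sgKMT2D, and with V of at most 0.2 the CXCL1 ratio was 0.54 log2, which is under 1.5-fold. The difference between the states was not tested. The NF-kB consensus was found in 11 of the 16 promoters of measured members present in the RefSeq table, or 68.8%, as against 12.6% of 6025 measured genes and 10.8% of all 27305 promoters, in windows of 300 bases on both strands. In the same windows it was in 18.1% of the 574 matched genes at least 1.5-fold lower in C1-sgKMT2D and in 14.1% of the 99 higher. The lower members IL32 and LTB carried it too. The list was itself chosen as cytokine and NF-kB target genes. These matches describe letters only.

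Of 14 MHC class I genes, 0 were higher and 4 lower, with a median of -0.42 log2 that was -0.24 under both other scalings. HLA-B was at 78.3 CPM in C1-sgKMT2D, 170 CPM in C1-sgEED and 162 CPM in C1-sgControl, and reads of HLA genes may be shared. The immunoproteasome subunit PSMB9 was at 21.2, 56.7 and 39.5 CPM and the peptide transporter TAP1 at 17.8, 34.0 and 37.9 CPM. C1-sgEED lay close to the control in HLA-B and TAP1. Of 6 interferon-response genes measured, 3 were lower by CPM and 2 under both other scalings. In thinned cells, or without cells with a mitotic UMI, 1 was lower. The median of -0.60 became 0.14 at a mean of at least 50 CPM, where 2 genes were left. IFITM2, which restricts virus entry, was at 20.7, 48.1 and 6.54 CPM, so both knockouts lay above the control. The ubiquitin-like ISG15 was at 28.5, 55.4 and 27.8 CPM, and there only the C1-sgEED level lay apart from the control. IFITM3 was at 351, 271 and 246 CPM.

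Among 13 imprinted genes, SNRPN was higher and 3 were lower in C1-sgKMT2D by CPM, and the list median was -0.13. Under both other scalings 2 were higher and 2 lower, with medians of 0.04 and 0.05. MEG3, a maternally expressed noncoding RNA, was at 35.5 CPM in C1-sgKMT2D, 120 CPM in C1-sgEED and 40.4 CPM in C1-sgControl. MEST was at 8.38, 14.8 and 5.83 CPM and PHLDA2 at 352, 575 and 447 CPM. Others such as KCNQ1OT1 (56.1, 58.0 and 58.4 CPM) and UBE3A (41.2, 45.2 and 46.5 CPM) lay at like levels in the 3 lines.

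Subunits of the targeted complexes showed small ratios. Of 10 PRC2 genes, 1 was higher, PHF19 at 118 and 78.1 CPM in C1-sgKMT2D and C1-sgEED. Its log2 ratio of 0.5857 barely passed the bound of 0.585. Both other scalings kept 1 higher, while V of at most 0.2 and thinned cells each gave 0 higher and 1 lower. The catalytic subunit EZH2 was at 18.6, 17.4 and 14.3 CPM. None of the 5 measured partners of KMT2D passed 1.5-fold either way. Developmental Polycomb targets were mostly too low to measure: 7 of 57 reached the bound, with 0 higher and 2 lower, and 4 of 39 HOX genes did, with none past 1.5-fold. Genes of TGF-beta and BMP signalling gave 0 higher and 5 lower of 13 by CPM, 1 higher and 2 lower with the median of ratios and 2 of each with TMM. Lower by CPM were, among others, the activin inhibitor FST at 9.13, 32.0 and 93.1 CPM and the YAP target CYR61 at 103, 235 and 139 CPM. Of 13 cell cycle inhibitors and D cyclins, 3 were lower by CPM, and 1 was higher and 2 lower under both other scalings, with CDKN1A, the p21 inhibitor, at 142, 252 and 255 CPM and CCND2 at 32.6, 75.5 and 71.8 CPM.

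Proliferation genes lay at like levels in the knockouts. Of 35 G2/M genes, 0 were higher and 1 lower, with a median of -0.05, and of 24 G1/S genes 0 were higher and 1 lower, with a median of 0.00. MKI67, the proliferation antigen, was at 213 CPM in C1-sgKMT2D, 202 CPM in C1-sgEED and 143 CPM in C1-sgControl. Each knockout had 22 of the 35 G2/M genes at least 1.5-fold above the control they share, where 5.24% of all genes in C1-sgKMT2D and 6.18% in C1-sgEED were that far above it.

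Genes of chromosome 16 were lower in C1-sgKMT2D nearly throughout. Of 291 measured genes, 97.3% had a ratio below 0 and 57.0% were at least 1.5-fold lower, with 0 higher and a median of -0.69 log2. The medians of the other chromosomes lay between -0.16 and 0.09. The median of chromosome 16 over C1-sgControl was -0.62 in C1-sgKMT2D and 0.09 in C1-sgEED. In 6 windows of equal gene number along it the median was -0.98, -0.97 and -0.91 up to position 31203450, and -0.29, -0.32 and -0.50 beyond. Above the bound of V the same contrast gave -0.61. This chromosome held 166 of the 725 lower genes (22.9%), and CDH1, CDH3, MARVELD3, IL32, FOXC2, RBL2 and SLC9A3R2 are among its genes. DNA copy number was not measured, and the lists were counted with these genes.

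**Figure D5:**
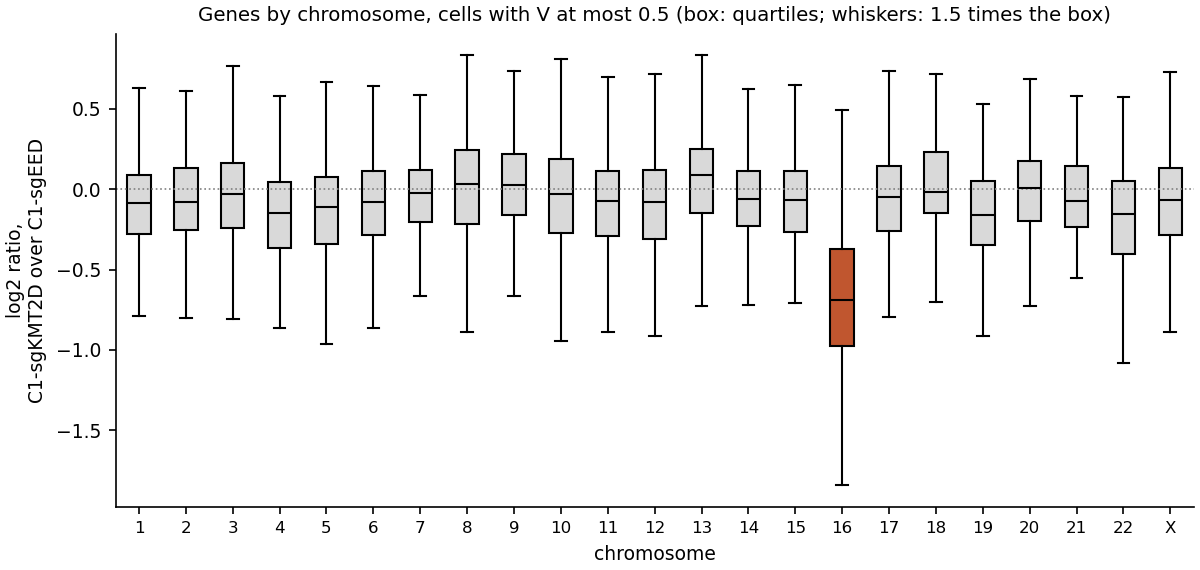
Log2 ratio of C1-sgKMT2D over C1-sgEED (1 CPM added) of measured genes in cells with V of at most 0.5, by chromosome (boxes are quartiles with the median, whiskers reach 1.5 times the box). Chromosome 16 has a median of -0.69, and the others lie between -0.16 and 0.09.

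Part of the contrast was seen on both sides of the bound of V. Of the 128 genes higher in C1-sgKMT2D with V of at most 0.5, 63 were also at least 1.5-fold higher above the bound, 7 were lower and 58 were neither. Of the 725 lower genes, 371 were also lower there, 59 were higher and 295 were neither. Of all 7135 genes measured above the bound, 670 (9.39%) were higher there and 1420 (19.9%) lower. The overlaps were counted without asking that a gene be measured there. Chromosome 16, lower on both sides, held 166 of the 725 genes. The cells below and above the bound are not the same, but they come from the same lines and the same library. IGFBP2 was at 19.2 and 367 CPM in C1-sgKMT2D and C1-sgEED above the bound, and DNER at 54.2 and 17.8 CPM. SNRPN was past 1.5-fold in the epithelial state alone, as was BAG1, at 71.05 and 65.6 CPM above the bound against 97.8 and 41.7 CPM below it. These differences between states were not tested. CCAT1 was lower in both lines above the bound but differed more, at 25.6 and 0.248 CPM.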

How the data were processed

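The authors deposited 1 matrix of UMI counts, whole numbers of 33694 genes and 4 hashtags in 10336 barcodes, written by Cell Ranger 3.0.2, per the file headers, on GRCh38, per the submitters' processing notes. Its annotation version and any barcode filter were not given in the sources used here. GEO's labels tie hashtags 1, 3 and 4 to the lines, and hashtag 2 to none. Counts were summed over the cells of a group and scaled to CPM, and ratios carry a pseudocount of 1 CPM. A gene was measured at a mean of at least 10 CPM over the 2 groups. Cells are not replicates, so no p-value was computed. Intervals are exact Poisson for sums, conditional binomial for ratios and Clopper-Pearson for shares, at 95%. A lack of replicates means that they cover counting error only.

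Barcodes with several strong hashtags were removed by the hashtag rule, and doublets of the same hashtag were left in. Named genes were the 15 genes at each end of the ranking by log2 ratio at a mean of at least 20 CPM, without mitochondrial, V and clone-named genes, plus EED, KMT2D, KRT5, KRT17, PKIB, SNRPN and list members of at least 10 CPM. MGMT and SNURF were added after their values were seen. Some list members are not reported here by name. The members and the 29 lists were chosen with earlier results of these data known. Positions are from GENCODE v29 on GRCh38, and upstream sequences from RefSeq (GRCh38.p14). Alternatives are given in the closing section. The intervals and directions of ratios were checked on simulated Poisson sums, which checks nothing of the hashtag, cell and V rules. Python 3.11.15, numpy 2.4.6, scipy 1.17.1, pandas 2.3.3, matplotlib 3.10.9, R 4.3.3 and edgeR 4.0.16 (for TMM factors only) were used.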

Additional observations from a re-analysis of the deposited data

Results flagged for a closer look

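Hashtag 2 is tied to no line in the labels, yet 1007 cells carried it with V of at most 0.5 after the same filters, and 914 with V above 0.5. These cells entered no comparison, and what they are was not tested. In those with V of at most 0.5, SNRPN was at 51.3 CPM, PKIB at 42.7 CPM, IGFBP2 at 29.99 CPM and MGMT at 0.869 CPM.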

How the results depend on the processing

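The 30 genes named by rank kept their direction in the 13 alternatives run on them, and 29 stayed past 1.5-fold in all (the exception was CXCL1). They were picked as the extremes of the same ratio, so a change of scaling could not turn their direction. Of 192 values of the counts and the main list medians, 163 stayed within the set range, 25 moved and 4 reversed. The count of higher genes, 128, became 249 in cells thinned to 2000 UMIs, 354 without cells with a mitotic UMI, 241 on a total without mitochondrial and ribosomal genes, 390 with the median of ratios, 399 with TMM, 265 at a mean of at least 2 CPM, 37 at 50 CPM and 201 in cells with V over 0.1 and up to 0.3 (chosen after seeing the data). The count of lower genes, 725, became 437 with the median of ratios, 434 with TMM, 1700 at 2 CPM and 173 at 50 CPM; the last 2 settings test other numbers of genes. The epithelial median, -0.18, became 0.00048 with the median of ratios and 0.0048 with TMM, the smooth muscle median -0.0268 and -0.0224, and the MHC class I median -0.24 with both. The hypoxia median became 0.0363 and 0.0407 with these scalings. The mesenchymal median was -1.02 at 50 CPM. Leaving out cells with a mitotic UMI removed 1010 of the 1360 C1-sgKMT2D and 879 of the 1252 C1-sgEED cells. The interferon median was 0.14 at 50 CPM and -0.23 without cells with a mitotic UMI. The G2/M median was -0.21 with V of at most 0.2. The squamous median was -0.37 with at most 10% mitochondrial UMIs and -1.71 without cells with a mitotic UMI. It was -0.0801 with the median of ratios, -0.0756 with TMM, -1.14 at 2 CPM and 0.27 at 50 CPM. With V over 0.1 and up to 0.3 it was -0.13. ZEB1 reversed to -0.29 in that range of V, and KYNU to -0.24 with V of at most 0.2. Where no scaling or gene bound was changed, the cause was not tested. No paired analysis was possible because each line is 1 sample. Depth limits low genes: KMT2D rested on 23 UMIs in C1-sgEED. The median log2 ratio of genes at 2 to 5 CPM was -0.26, against -0.01 at 200 CPM and above. The cause of this shift with level was not tested. Over all measured genes the median was -0.08 in cells thinned to 2000 UMIs and -0.07 in the main setting.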

Other observations

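Some genes under the bound of 20 CPM had larger ratios than most named ones and are given here after their values were seen. TNFAIP6, a hyaluronan-binding protein made in inflammation, had 103 UMIs (11.1 CPM) in epithelial-state C1-sgKMT2D cells, 0 in C1-sgEED and 1.11 CPM in C1-sgControl, and its C1-sgKMT2D level above the bound of V was 188 CPM. KYNU, an enzyme of tryptophan breakdown, was at 9.13, 1.61 and 1.71 CPM, with a log2 ratio that turned to -0.24 in cells with V of at most 0.2, and at 157 CPM in C1-sgKMT2D cells above the bound. The 10 highest cells held 45.6% of the TNFAIP6 UMIs and 40% of the KYNU UMIs of epithelial-state C1-sgKMT2D cells. The RNA-binding protein KHDRBS3 went the other way, at 3.44, 25.8 and 1.41 CPM. CADM3, an adhesion protein, was at 7.62, 1.77 and 0.704 CPM, on 71, 11 and 7 UMIs. The 10 highest cells held 38.0% of its UMIs in epithelial-state C1-sgKMT2D. Above the bound of V, CADM3 was at 106 CPM in C1-sgKMT2D and 152 CPM in C1-sgEED.

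The promoters of the named genes differed in base composition. The observed over expected CpG ratio had a median of 0.56 over the 11 matched of the 15 lowest genes and 0.82 over the 12 matched of the 15 highest, beside 0.86 over all measured genes. The median over the genes at least 1.5-fold lower was 0.82 and over those higher 0.87.

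Of 5 luminal genes measured, 0 were higher and 2 lower (1 under both other scalings), with a median of 0.00 beside the -0.07 of all genes, of which 9.94% were lower. The lower ones were the surface protein CD24, at 66.3 CPM in C1-sgKMT2D, 148 CPM in C1-sgEED and 227 CPM in C1-sgControl, and the EGF receptor ligand AREG, at 1191, 1849.5 and 1959 CPM. Tissue factor, F3, was at 46.9, 115 and 206 CPM. Of 21 immediate-early genes, 1 was higher and 3 lower by CPM, with a median of -0.16, and 2 were higher and 1 lower under both other scalings, with medians of 0.01 and 0.02. ATF3, a stress-induced factor, was at 121, 208 and 187 CPM.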
